A study of Mus musculus with 14 samples.

Results

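The C1q-like genes C1ql1, C1ql2 and C1ql3 and the cerebellin genes Cbln1, Cbln2, Cbln3 and Cbln4 encode small secreted proteins that sit between the 2 sides of a synapse. They were taken by gene symbol, 7 genes of the 20492 named in the authors' deposited tables, and each has 1 row per comparison. The set was chosen by its measured values, the lower FPKM of C1ql2 and C1ql3 in hippocampus of TRF2-depleted mice, so the hippocampus values of these genes against control are given as a description and carry no test here. The values that the choice did not use are those of the cortex.

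The data are total RNA sequencing of C57BL/6 mice aged 3 months. The groups are TRF2-depleted cortex (3 samples) and control cortex (4 samples), and TRF2-depleted hippocampus (3 samples) and control hippocampus (3 samples). TRF2, encoded by Terf2, belongs to the shelterin complex that covers chromosome ends, and the series' design text names a Cre recombinase with Dcx, whose product marks immature neurons. Which cells lost Terf2 was not tested. The same text calls the comparison cohort WT, and the labels give its genotype as control. Another sample is tagged with both tissues and was placed in no group. Which samples the authors pooled into each condition is not known here, so that sample may be part of a pooled value. The hippocampus table holds a further condition named DKO, which no label describes. Its genotype and number of samples are not known here, and its values are reported under that name only. Each condition has 1 value per row, pooled over samples by the authors, so no value has an error between replicates and the values of single samples cannot be shown. The labels do not say whether samples come from separate animals.

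Proteins of both families carry a globular C1q domain at the carboxyl end, assemble into multimers and are released at synapses. Cerebellins hold neurexins on the presynaptic side to receptors on the postsynaptic side, as described for Cbln1 in the cerebellum. C1q-like proteins bind the adhesion receptor Bai3 (now Adgrb3). In the mouse hippocampus C1ql2 and C1ql3 are known from the mossy fibres, the axons of dentate granule neurons, where they bind neurexin 3 and gather kainate receptors on CA3 pyramidal neurons.

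C1ql2 and C1ql3 are paralogs, and the last coding exon of each, 177 bases in both, is shown because it bears on whether their reads can be told apart. The sequences are from GENCODE vM21 (mm10), written 5′ to 3′ on the coding strand, and capitals mark the 43 bases that differ. C1ql2 lies on the plus strand at chr1:120342395-120342571 and C1ql3 on the minus strand at chr2:13004268-13004444.
C1ql2: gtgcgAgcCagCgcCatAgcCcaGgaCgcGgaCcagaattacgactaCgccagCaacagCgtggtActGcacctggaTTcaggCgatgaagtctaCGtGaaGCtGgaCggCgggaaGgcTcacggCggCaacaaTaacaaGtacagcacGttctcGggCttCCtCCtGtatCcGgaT
C1ql3: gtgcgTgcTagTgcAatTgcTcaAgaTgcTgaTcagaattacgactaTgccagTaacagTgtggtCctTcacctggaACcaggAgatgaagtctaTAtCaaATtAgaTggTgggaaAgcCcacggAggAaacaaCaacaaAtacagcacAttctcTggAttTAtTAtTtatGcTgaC
The exons share 134 of 177 bases (75.7%), with no identical run longer than 14 bases. Over the whole coding sequence C1ql2 and C1ql3 are identical at 76.5% of aligned bases, and their longest identical run is 38 bases. This was the longest run among all pairs of the 7 genes, whose coding identity ranged from 60.6% for C1ql1 with Cbln4 to 76.5% for C1ql2 with C1ql3. The read length is not stated in the labels.

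By position (mm10, deposited loci counted from 1), C1ql2 spans 120340582 to 120343174 on chromosome 1, the same bounds as its GENCODE gene. C1ql3 is deposited with a locus from 12924041 to 13010864 on chromosome 2, which also takes in Pter on the opposite strand, and whether counting used strand is not stated in the labels. The GENCODE gene C1ql3 itself runs from 13003457 to 13011806. Both genes have 2 exons, each partly coding. C1ql1 spans 102939264 to 102946649 on chromosome 11, Cbln1 87468853 to 87472592 on chromosome 8, Cbln2 86713048 to 86718283 on chromosome 18, Cbln3 55878920 to 55884256 on chromosome 14 and Cbln4 172036336 to 172043466 on chromosome 2, all in the hippocampus table. FPKM counts fragments per kilobase, scaled to the mapped total, and the lengths the authors used are not stated in the labels. The coding length in GENCODE ranges from 579 bases in Cbln1 to 861 bases in C1ql2.

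The targeted gene was checked first. Terf2, summed over its 3 rows, stood at 0.202 FPKM in TRF2-depleted and 3.59 FPKM in control cortex, and the authors' deposited table gives its most abundant row p = 0.105 and q = 0.576. In hippocampus Terf2 stood at 0.753 FPKM in DKO, 0.883 FPKM in TRF2-depleted and 2.01 FPKM in control, and was not tested by the authors. Of 26348 rows per comparison the authors tested 9536 in cortex and between 11017 and 11054 in hippocampus. FPKM summed to between 159494 and 171147 per condition, and the median log2 ratio of genes with at least 1 FPKM lay between -0.03 and 0.01 in the 4 comparisons. Counting error cannot be given, as the read depth is unknown.

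C1ql3 was the most abundant of the 7 genes in all 5 conditions. In control hippocampus it had 45.4 FPKM, above 94.1% of genes with at least 1 FPKM there, and C1ql2 followed at 19.2 FPKM. Cbln4 (3.74 FPKM), Cbln2 (3.41 FPKM), C1ql1 (2.17 FPKM) and Cbln1 (1.83 FPKM) lay close together below them, and Cbln3 stood at 0.0681 FPKM. With pooled values, whether neighbours in this order differ beyond the spread between samples cannot be said.

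Control cortex gave another order. C1ql3 led with 29.3 FPKM, Cbln2 (7.27 FPKM) and Cbln4 (4.86 FPKM) came next, and C1ql2 was second to last with 1.02 FPKM, above Cbln3 at 0.0272 FPKM. C1ql2 was thus the member with the largest step between the 2 tables, at 18.8-fold the level in control hippocampus compared with control cortex (log2 ratio 4.23). Across 11414 genes with at least 1 FPKM in either control, 90% lay between the 5th percentile of -1.44 and the 95th of 1.43 on the same scale, with a median of 0.10. C1ql3 had a log2 ratio of 0.63, hippocampus over cortex, and Cbln2, a ligand of neurexins and GluD1, one of -1.09, lower in hippocampus. The 2 tables were processed as separate runs with their own scaling, so these levels stand side by side without a test. The step of C1ql2 was not particular to it. Pkm had 212 FPKM in control hippocampus and 11.9 FPKM in control cortex, and Sdhb 46.7 and 4.29 FPKM. Whether such steps come from the tissues or from the separate runs was not tested. Cbln3, which needs Cbln1 for its release and is known from cerebellar granule neurons, was at most 0.138 FPKM in every condition. Gabra6, the GABA receptor subunit that defines cerebellar granule neurons, is listed at 0 in all 5 conditions.

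**Figure D1:**
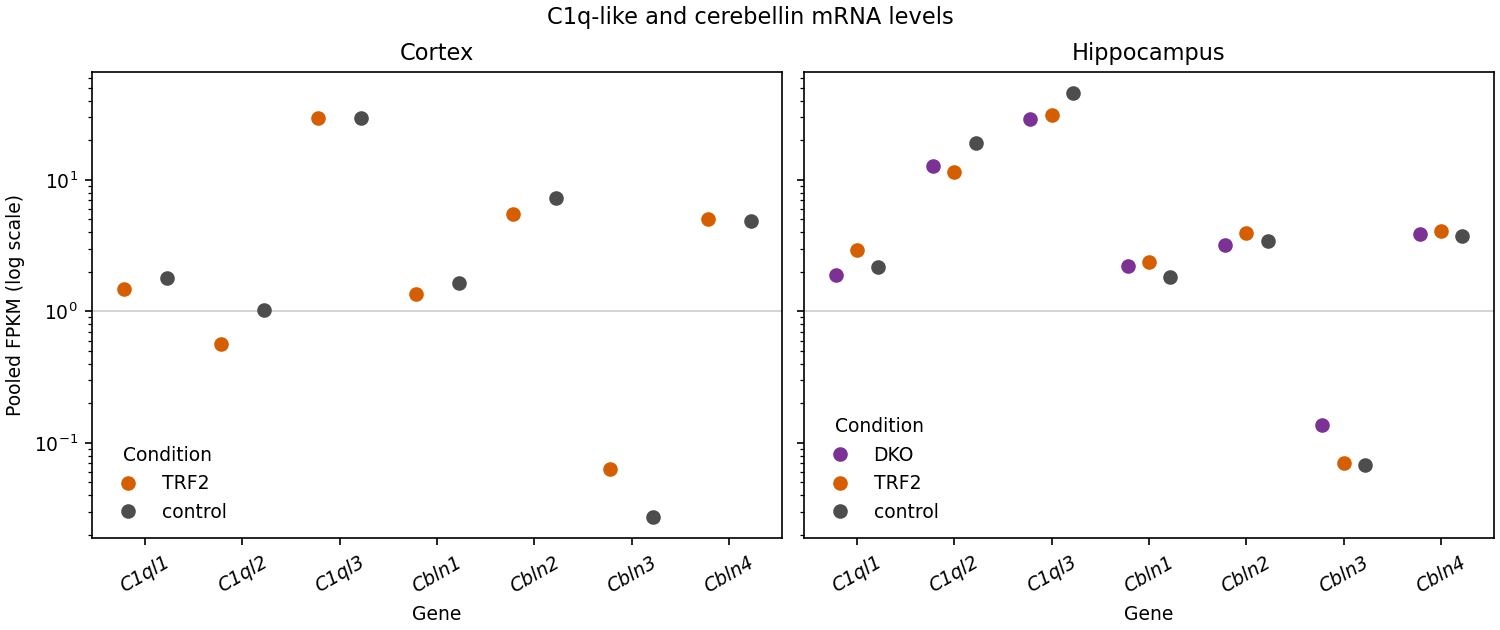
Pooled FPKM (log axis) of the 7 genes in cortex (left) and hippocampus (right), 1 point per condition as deposited, with no error bars because the authors pooled the samples; the grey line marks 1 FPKM. C1ql2 stands at 12.7 and 11.4 FPKM in DKO and TRF2-depleted hippocampus, against 19.2 FPKM in control hippocampus, and C1ql3 is level across cortex at 29.3 FPKM in both groups.

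In hippocampus, C1ql2 and C1ql3 fell in the TRF2-depleted group, the observation by which the set was chosen. C1ql2 had 11.4 FPKM in TRF2-depleted and 19.2 FPKM in control hippocampus, 40.7% lower (log2 ratio -0.75). C1ql3 had 31.0 FPKM in TRF2-depleted and 45.4 FPKM in control hippocampus, 31.7% lower (log2 ratio -0.55). These are the mossy fibre members of the set. The other 4 genes above 1 FPKM were all numerically higher in the TRF2-depleted group and none was called.

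C1ql1, known as the climbing fibre ligand of the cerebellum, had 2.92 FPKM in TRF2-depleted and 2.17 FPKM in control hippocampus. Cbln1 had 2.38 FPKM in TRF2-depleted and 1.83 FPKM in control hippocampus, a log2 ratio of 0.38. Cbln2 (3.94 and 3.41 FPKM in TRF2-depleted and control hippocampus) and Cbln4 (4.06 and 3.74 FPKM), a cerebellin that binds neurexins and is reported to bind Dcc, differed less. Cbln3 was at 0.0708 FPKM in TRF2-depleted and 0.0681 FPKM in control hippocampus and was not tested. A row is called here at a deposited q of 0.05 or less, and a gene is represented by its most abundant tested row. By that rule 2 of the 6 members tested were lower and 0 higher, beside 0.122% of all 9824 genes tested that were lower. In the authors' deposited table C1ql2 and C1ql3 stand at q = 0.0301, the value shared by all calls of this comparison. It belongs to the smallest deposited p of 5e-05, so no row has a lower q. The nearest member outside the threshold is Cbln1 at q = 0.886. Since this comparison chose the set, nothing is read from these counts.

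The samples named DKO had like values of C1ql2 and C1ql3. C1ql2 stood at 12.7 FPKM in DKO hippocampus, against 19.2 FPKM in control hippocampus (log2 ratio -0.59), and C1ql3 at 29.0 FPKM in DKO, against 45.4 FPKM in control (log2 ratio -0.65). Both were called lower (q = 0.0301 each in the authors' deposited table), so that 2 of 6 members tested were lower, beside 0.132% of 9816 genes. The controls are the same samples as in the comparison that chose the set, so the DKO values add no independent support.

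No other member passed in DKO hippocampus. C1ql1 had 1.89 FPKM in DKO and 2.17 FPKM in control (q = 0.976 in the authors' deposited table), and Cbln1 had 2.20 FPKM in DKO and 1.83 FPKM in control (q = 0.887). Cbln3 had 0.138 FPKM in DKO and 0.0681 FPKM in control and was not tested. Cbln2 had 3.19 FPKM in DKO and 3.41 FPKM in control (q = 0.964 in the authors' deposited table), and Cbln4 had 3.90 FPKM in DKO and 3.74 FPKM in control (q = 0.977). C1ql1 thus lay above control in the TRF2-depleted group and below it in DKO.

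Set against each other, DKO and TRF2-depleted hippocampus did not differ past the threshold in any of the 6 members tested, beside 0.153% of 9818 genes called in either direction. An unadjusted p under 0.05 was reached by 0 members, beside 499 of the same 9818 genes. For C1ql2 the log2 ratio of DKO over TRF2-depleted was 0.16, with a 95% interval of -0.13 to 0.45 implied by the authors' deposited p of 0.279. For C1ql3 the log2 ratio was -0.10, with an implied interval of -0.34 to 0.14 (p = 0.410 in the authors' deposited table). Intervals of this kind take the log2 ratio as normally distributed with the error that the deposited p implies. C1ql1 had the lowest ratio (1.89 FPKM in DKO, 2.92 FPKM in TRF2-depleted, log2 ratio -0.63), with an implied interval of -1.75 to 0.50 that spans 0 (p = 0.273 in the authors' deposited table). The TRF2-depleted samples of this comparison also belong to the one that chose the set.

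**Figure D2:**
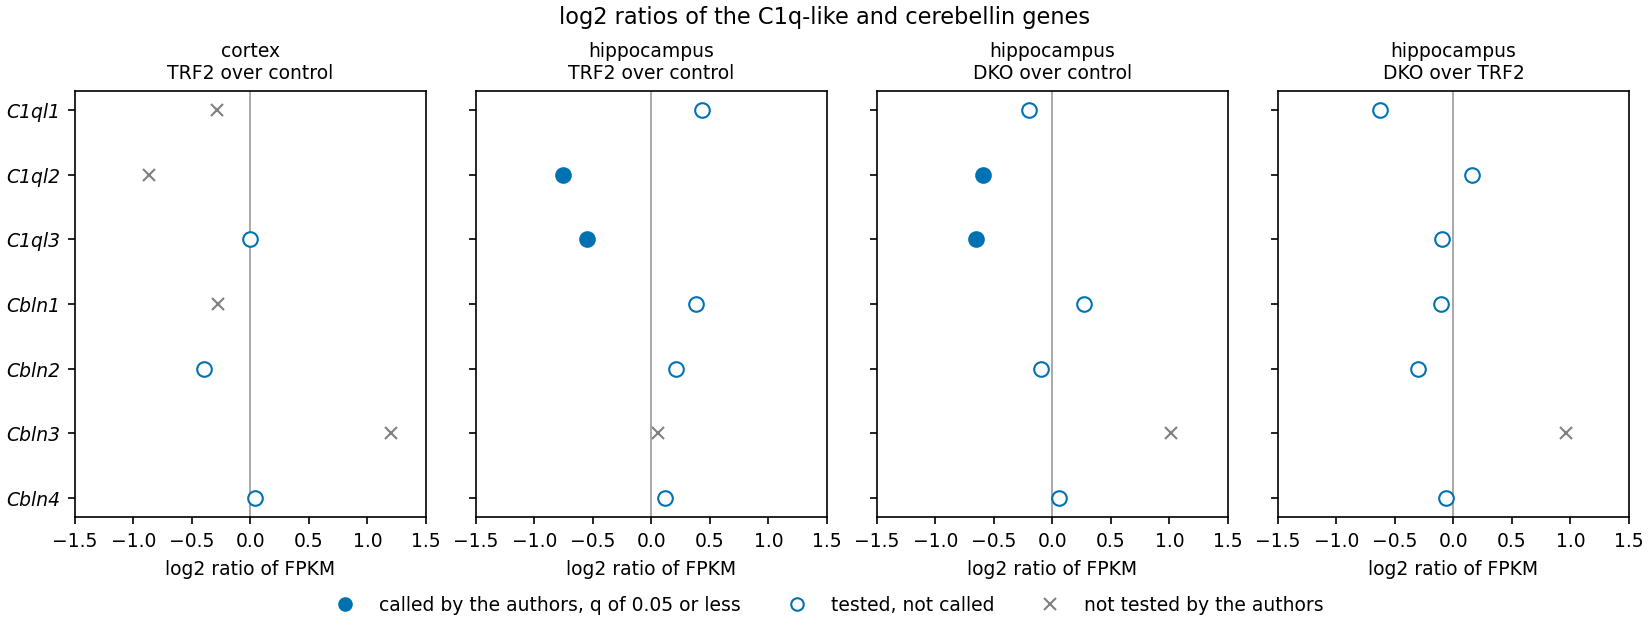
Log2 ratio of pooled FPKM for the 7 genes in the 4 comparisons, 1 point per gene. Filled points were called at the authors' deposited q of 0.05 or less, open points were tested and not called, and crosses were not tested. C1ql2 and C1ql3 are the called members, at -0.75 and -0.55 in TRF2-depleted over control hippocampus and -0.59 and -0.65 in DKO over control; the crosses of Cbln3 come from levels of at most 0.138 FPKM.

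The cortex is the comparison that the choice of genes did not use, and there 0 of the 3 members tested were called, beside 0.323% of 8658 genes called in either direction. At an unadjusted p under 0.05 the count of members was also 0 in the authors' deposited table, beside 571 of all 8658 genes tested. C1ql3 had 29.3 FPKM in TRF2-depleted and 29.3 FPKM in control cortex (log2 ratio 0.00), and the authors' deposited table gives q = 0.996. Its implied interval was -0.19 to 0.18 (p = 0.981 in the authors' deposited table). The difference between the tissues was not tested, since the hippocampus value chose the gene.

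Cbln2 had 5.53 FPKM in TRF2-depleted and 7.27 FPKM in control cortex (log2 ratio -0.39), with an implied interval of -1.07 to 0.28 and q = 0.703 in the authors' deposited table. Cbln4 had 5.01 FPKM in TRF2-depleted and 4.86 FPKM in control cortex (log2 ratio 0.04), with an implied interval of -0.28 to 0.36 and q = 0.954 in the authors' deposited table. The interval of Cbln2 was wider than that of Cbln4, and both span 0. The remaining 4 members were not tested by the authors in cortex. C1ql2 had 0.562 FPKM in TRF2-depleted and 1.02 FPKM in control cortex (log2 ratio -0.86), C1ql1 1.47 and 1.79 FPKM, and Cbln1 1.36 and 1.65 FPKM in TRF2-depleted and control cortex. The ratio of C1ql2 was the lowest of the 6 measured members in cortex, at a level near 1 FPKM where a pseudocount of 1 FPKM brings it to -0.37. Cbln3 had 0.0628 FPKM in TRF2-depleted and 0.0272 FPKM in control cortex.

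The binding partners showed no called change. The list holds 11 genes, all with at least 1 FPKM in 1 group of every comparison: the Bai receptors Bai1, Bai2 and Bai3, the delta receptor Grid1, the kainate receptor subunits Grik2, Grik4 and Grik5, the neurexins Nrxn2 and Nrxn3, and the netrin receptors Dcc and Neo1. Values are summed over the rows of a gene, and p and q belong to its most abundant tested row. In cortex 0 of 9 tested partners passed, beside 0.323% of all genes called in either direction. Their median log2 ratio was -0.02 over the 11 genes, beside -0.03 over all genes tested. In hippocampus 0 of 11 passed in the TRF2-depleted group, beside 0.183% of all genes called in either direction, and their median was -0.04, beside 0.00 over all genes tested. In DKO hippocampus 0 of 10 passed, beside 0.204% of all genes, and against the TRF2-depleted group 0 of 11, beside 0.153%. At such shares a list of this size would mostly have 0 called. At an unadjusted p under 0.05 the counts were 0 in cortex and 1, 1 and 0 in the 3 hippocampus comparisons in the authors' deposited table. Over all genes tested they were 571 of 8658 in cortex and 512 of 9824 in TRF2-depleted hippocampus. In DKO hippocampus they were 705 of 9816 against control and 499 of 9818 against the TRF2-depleted group.

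Grik4, the kainate receptor subunit enriched at mossy fibre synapses, had the lowest ratio to control in both hippocampus groups. It stood at 4.46 FPKM in DKO, 3.32 FPKM in TRF2-depleted and 7.62 FPKM in control hippocampus. Its log2 ratio in the TRF2-depleted group was -1.20 with an implied interval of -2.76 to 0.36 (p = 0.132 and q = 0.886 in the authors' deposited table). In cortex Grik4 had 3.47 FPKM in TRF2-depleted and 3.29 FPKM in control (log2 ratio 0.07). Grik2, which pairs with Grik4 in the receptor, had 4.23 FPKM in DKO, 4.21 FPKM in TRF2-depleted and 3.19 FPKM in control hippocampus, and Grik5 24.8, 21.1 and 21.7 FPKM in the same order. Neither passed.

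Bai3, the C1q-like receptor, had 7.78 FPKM in DKO, 7.97 FPKM in TRF2-depleted and 9.11 FPKM in control hippocampus (log2 ratio -0.19 in the TRF2-depleted group, implied interval -0.66 to 0.27). In cortex Bai3 had 9.21 FPKM in TRF2-depleted and 8.61 FPKM in control. Bai2, a relative of Bai3, had the smallest p of the list in TRF2-depleted hippocampus (p = 0.0274 and q = 0.839 in the authors' deposited table), with 43.7 FPKM there and 59.9 FPKM in control hippocampus. In DKO hippocampus Bai2 was at 56.4 FPKM. Bai1 had 5.14 FPKM in DKO, 12.6 FPKM in TRF2-depleted and 7.55 FPKM in control hippocampus, lying on opposite sides of control. Against control the authors' deposited table gives Bai1 q = 0.919 in DKO and q = 0.886 in the TRF2-depleted group.

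Nrxn3, the presynaptic partner of C1ql2 and C1ql3, had 4.46 FPKM in DKO, 3.28 FPKM in TRF2-depleted and 2.88 FPKM in control hippocampus. Its log2 ratio of 0.19 in the TRF2-depleted group had p = 0.699 in the authors' deposited table for its most abundant row. Nrxn2 had 19.5 FPKM in DKO, 14.9 FPKM in TRF2-depleted and 17.4 FPKM in control hippocampus. The most abundant row of Nrxn2 in DKO against control had p = 0.0246 and q = 0.810 in the authors' deposited table. Grid1, the delta receptor of the forebrain, had 9.49 FPKM in DKO, 7.08 FPKM in TRF2-depleted and 9.57 FPKM in control hippocampus. Neo1 had the highest ratio (2.59 FPKM in TRF2-depleted and 0.957 FPKM in control hippocampus, log2 ratio 1.44), with p = 0.116 in the authors' deposited table for its most abundant row. Dcc had 2.77, 3.12 and 3.07 FPKM in DKO, TRF2-depleted and control hippocampus.

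**Figure D3:**
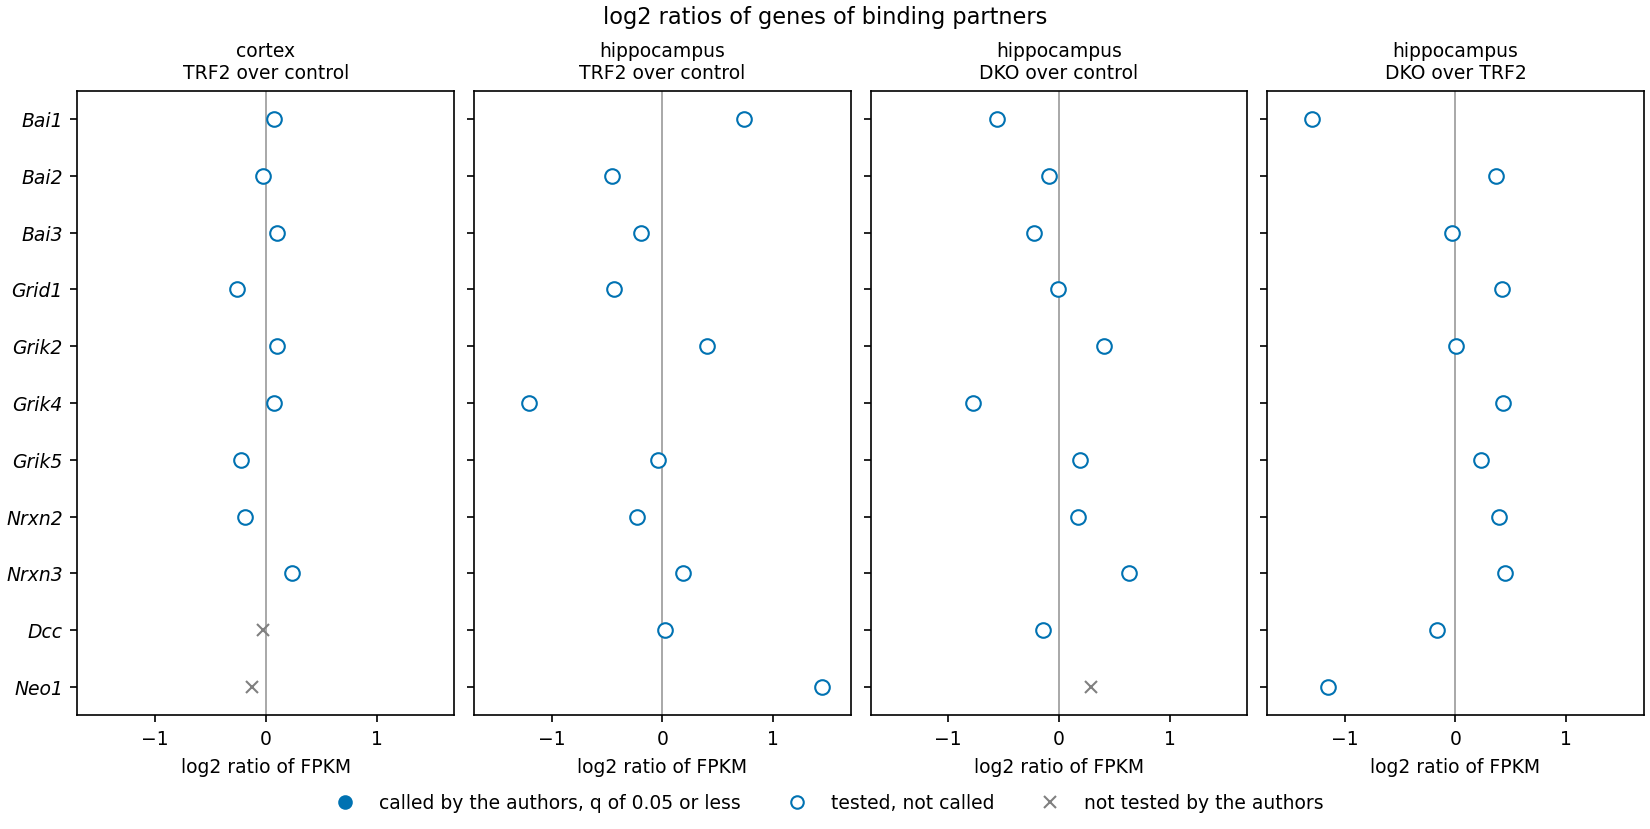
Log2 ratio of FPKM, summed over rows, for the 11 partner genes in the 4 comparisons. Open points were tested by the authors and not called, crosses were not tested, and no point is filled because 0 partners were called. Grik4 is lowest in TRF2-depleted over control hippocampus at -1.20 and Neo1 highest at 1.44.

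Since C1ql2 and C1ql3 belong to dentate granule neurons in the mouse hippocampus, other genes of these cells were set beside them. The list of 20 granule neuron genes holds neither. In TRF2-depleted hippocampus 5 of its 16 tested members fell and 0 rose, beside 0.122% of all genes tested that were lower, 16 of 17 with at least 1 FPKM were lower, and the median log2 ratio was -0.54, beside 0.00 over all genes tested. Desmoplakin (Dsp) had 1.16 FPKM in TRF2-depleted and 3.27 FPKM in control hippocampus, Fam163b 8.87 and 18.6 FPKM, Lct 2.26 and 4.66 FPKM, and Stxbp6 8.44 and 15.7 FPKM, each at q = 0.0301 in the authors' deposited table. Sema5a is the fifth. Cdh9 was the one measured member that was higher, with 2.00 FPKM in TRF2-depleted and 0.951 FPKM in control hippocampus.

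Prox1, the transcription factor that defines granule neurons, had 2.64 FPKM in DKO, 1.38 FPKM in TRF2-depleted and 4.88 FPKM in control hippocampus. The authors' deposited table gives Prox1 p = 0.00015 in the TRF2-depleted group, which was not called, and p = 0.134 in DKO. In DKO 3 of 15 tested members fell (Dsp, Stxbp6 and Sema5a), beside 0.132% of all genes tested. There 15 of 18 measured were lower, and the median was -0.50, beside 0.01 over all genes tested. Summed over the list, FPKM was 112 in DKO, 99.2 in TRF2-depleted and 144 in control hippocampus. Plk5 is listed at 0 in control hippocampus. Of the called members, Dsp was at 0.0159 and 0.0372 FPKM in TRF2-depleted and control cortex and Lct at 0.147 and 0.128 FPKM. Fam163b was at 15.0 and 17.8 FPKM, Stxbp6 at 4.21 and 4.96 FPKM and Sema5a at 4.36 and 4.32 FPKM in the same order. Not every gene of the list is thus particular to the hippocampus. In cortex 0 of 10 tested members passed, beside 0.323% of all genes called in either direction, with a median of -0.14 over 14 measured. In bulk tissue a smaller share of granule neurons in the pieces sampled, whatever its reason, and less of these RNAs per granule neuron cannot be told apart. TRF2-depleted and DKO hippocampus are set against the same control samples. The part of the granule neuron list in the values of C1ql2 and C1ql3 was not tested. The list was set with earlier results of these data known.

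No gene was called in the lists of 5 other cell types of the hippocampus and its border. Over all genes tested, 0.183% were called in either direction in TRF2-depleted and 0.204% in DKO hippocampus. At such shares a list of this size would mostly have 0 called. CA pyramidal neuron genes, the targets of mossy fibres among them, had 0 of 17 tested members called in both TRF2-depleted and DKO hippocampus, with medians of 0.01 and 0.21. Interneuron genes had 0 of 13 called in both, with medians of 0.08 and 0.17. Genes of oligodendrocyte precursors had 0 of 12 called in both (medians 0.08 and 0.09), and microglia genes 0 of 13 (medians 0.00 and 0.19). Retrohippocampal and subicular genes had 0 of 9 called in TRF2-depleted hippocampus (median -0.11) and 0 of 10 in DKO (median -0.16). Measured genes higher than control in TRF2-depleted hippocampus were 10 of 19 for pyramidal neurons, 9 of 13 for interneurons and 9 of 14 for precursors. They were 7 of 14 for microglia and 5 of 11 for retrohippocampal genes. In DKO the counts were 16 of 19, 11 of 14, 10 of 14, 10 of 14 and 5 of 11 in the same order. At an unadjusted p under 0.05, TRF2-depleted and DKO hippocampus had 1 and 3 pyramidal neuron genes, 2 and 1 interneuron genes, 0 and 0 precursor genes, 0 and 3 microglia genes, and 1 and 2 retrohippocampal genes. Over all genes tested the counts were 512 of 9824 in TRF2-depleted and 705 of 9816 in DKO hippocampus.

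Genes of the meninges and the choroid plexus, which lie next to the tissue sampled, also had called members. Meningeal fibroblast genes summed to 334 FPKM in DKO, 326 FPKM in TRF2-depleted and 211 FPKM in control hippocampus. Ptgds alone made up 283, 265 and 165 FPKM of these, so the sums mostly follow 1 gene. In the TRF2-depleted group all 11 measured members were higher than control (median log2 ratio 0.62) and 1, Ptgds, was called. In DKO 10 of 11 were higher (median 0.39), and Ptgds was the 1 of 9 tested that was called, beside 0.204% of all genes. There 3 had an unadjusted p under 0.05, beside 705 of all 9816 genes tested. Between DKO and TRF2-depleted hippocampus 8 of 11 were lower in DKO (median -0.23). Choroid plexus genes summed to 19.8 FPKM in DKO, 516 FPKM in TRF2-depleted and 293 FPKM in control hippocampus. Transthyretin (Ttr) alone made up 5.52, 472 and 264 FPKM of these sums. Of 7 tested choroid plexus genes 4 were called lower in DKO, beside 0.132% of all genes tested. In the TRF2-depleted group 0 of 8 were called and 4 had an unadjusted p under 0.05, beside 512 of all 9824 genes tested. In cortex the choroid plexus genes summed to 9.57 FPKM in TRF2-depleted and 108 FPKM in control. Ttr was the 1 of 2 tested there that was called, beside 0.323% of all genes. It had 1.15 FPKM in TRF2-depleted and 93.3 FPKM in control cortex. Of the thalamic and habenular list, which bears on Cbln1 and Cbln2, 1 of 9 tested genes passed in both groups, beside 0.183% and 0.204% of all genes. It was Zic1 (4.69 FPKM in DKO, 4.51 FPKM in TRF2-depleted and 2.12 FPKM in control hippocampus). The list did not move with Zic1: 6 of 12 measured members were higher in TRF2-depleted hippocampus (median -0.01). In DKO 5 of 11 were higher (median -0.18). The part of these tissues in the members' values was not tested.

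**Figure D4:**
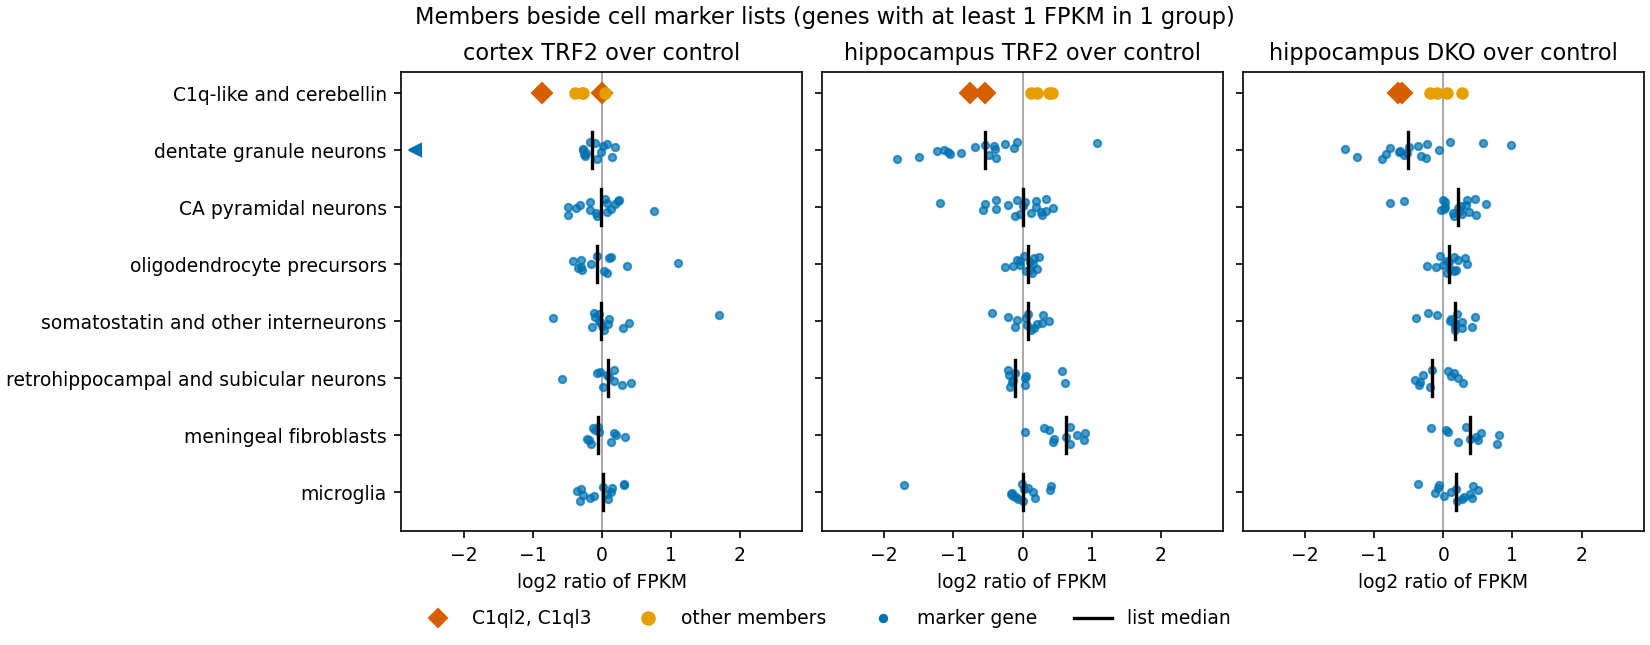
Log2 ratio of FPKM for members and marker genes with at least 1 FPKM in either group, in 3 comparisons; diamonds are C1ql2 and C1ql3, large circles the other members, small circles marker genes and black bars list medians. In hippocampus the granule neuron median is -0.54 in TRF2-depleted and -0.50 in DKO. C1ql2 and C1ql3, whose hippocampus values chose the set, stand at -0.75 and -0.55 in TRF2-depleted and at -0.59 and -0.65 in DKO. Their place beside the list is a description and was not tested. The arrow at the left edge of the cortex panel is Cdh9, which lies beyond the axis at -7.40.

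Levels over the 5 conditions were also used to look for genes with the most similar pattern, by the root mean square difference of log2(FPKM + 0.1), centred on its own mean, among 10760 genes with at least 1 FPKM in 1 condition of each table. For C1ql3 the nearest was Elavl3, a neuronal RNA-binding protein, at a difference of 0.0235. Elavl3 had 13.3 and 13.0 FPKM in TRF2-depleted and control cortex, and 13.5, 13.9 and 20.6 FPKM in DKO, TRF2-depleted and control hippocampus. Tmem107 (0.059), Fam84a (0.0599), Ikzf4 (0.0613) and Ttc8 (0.0625) followed. For C1ql2 the nearest was Rtn4rl2, a receptor of the Nogo receptor family, at 0.249, with 1.06 and 1.27 FPKM in TRF2-depleted and control cortex and 15.4, 14.9 and 20.0 FPKM in DKO, TRF2-depleted and control hippocampus. Faim2 (0.258), Sdhb (0.347), Pkm (0.355) and Synj1 (0.365) came next. Faim2 had 2.71 and 4.45 FPKM in TRF2-depleted and control cortex and 52.1, 50.6 and 52.0 FPKM in DKO, TRF2-depleted and control hippocampus, so that it had the step between the tables but not the lower levels of DKO and TRF2-depleted hippocampus. With 5 pooled points the likeness is a description.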

How the data were processed

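The labels' protocols name RNeasy extraction and NEBNext Ultra libraries, and CASAVA 1.8, TopHat2, Cufflinks, Cuffdiff and mm10 appear in the submitters' processing notes. The deposited values are FPKM pooled by the authors per condition and coding-sequence row, with a p-value and q-value per row, per the file headers. Counts of calls leave out rows without a test. In hippocampus the deposited q-values match, to within 5.26e-07, an adjustment by Benjamini-Hochberg over the 3 comparisons together. Those of cortex differ from one over their table by up to 0.335.

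Log2 ratios were recomputed from FPKM summed over a gene's rows, without a pseudocount. A gene counts as measured at 1 FPKM or more in 1 group compared. Intervals implied by the p-value were added after seeing the data. Coding sequences come from GENCODE vM21. Genes named are the 7 members, the 11 partners of the list (others are not reported here), up to 4 called genes per list (where none was called, the 2 with the smallest p) and the 5 nearest patterns; the text gives a choice of the rest, and other genes were named after their values were seen. Members and lists were chosen with earlier results of these data known. Alternatives covered the threshold, the adjustment, rows, pseudocounts and centring. Calculations used Python 3.11.15, numpy 2.4.6, pandas 2.3.3, scipy 1.17.1, biopython 1.88 and matplotlib 3.10.9, and were checked on simulated data.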

Additional observations from a re-analysis of the deposited data

How the results depend on the processing

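The counts of called members (0 in cortex, 2 in each comparison of hippocampus with control, 0 between DKO and TRF2-depleted hippocampus) were the same at a q of 0.1, with the adjustment over each comparison alone, from any tested row and over genes with at least 1 FPKM. At a q of 0.01 the count was 0 in both comparisons with control, since the smallest deposited p of 5e-05 gives the q of 0.0301 there. Of 112 recomputed log2 ratios of members, 99 moved by 0.1 or less and 0 called ratios changed sign. Much of this was fixed beforehand and shows no stability. With 1 row per member, any tested row or the most abundant row (28 ratios) could change nothing. A pseudocount cannot change the sign of a ratio, and the medians used for centring were smaller than 0.1. The 13 ratios that moved more did so with a pseudocount and belong to C1ql1, Cbln1, Cbln3 and, in cortex, C1ql2. With a pseudocount of 1 FPKM, 2 of the 5 genes nearest in pattern were shared for C1ql2 and for C1ql3, and at 5 FPKM 2 for C1ql3, while C1ql2 falls below that level in cortex and gave no value. No paired analysis was possible because the tables hold 1 pooled value per condition, and for the same reason no sample could be left out. Depth is unknown, and 4 of 7 members were not tested by the authors in cortex.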

Other observations

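Other synaptic organizers, adhesion and secreted proteins of the kind that C1q-like proteins and cerebellins belong to, gave 1 called gene in cortex. Nptx2, an activity-dependent pentraxin that clusters AMPA receptors, fell to 15.2 FPKM in TRF2-depleted cortex, against 21.1 FPKM in control cortex (log2 ratio -0.47), with q = 0.00864 in the authors' deposited table. It was the 1 of 31 tested members of the list that passed, beside 0.323% of all genes tested, and the list median was 0.00. In hippocampus 0 of 31 passed in the TRF2-depleted group and 0 of 33 in DKO, beside 0.183% and 0.204% of all genes. At such shares a list of this size would mostly have 0 called. The list medians there were -0.04 and -0.09. The counts with an unadjusted p under 0.05 were 0 and 6 in the authors' deposited table, beside 512 of 9824 and 705 of 9816 over all genes tested, among the 6 Slitrk4 at 4.82 FPKM in DKO and 8.12 FPKM in control hippocampus (q = 0.365).

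Of 24 other genes with a C1q domain, 6 had at least 1 FPKM and 0 were called in any of the 4 comparisons. Over all genes tested, 0.323% were called in cortex, and 0.183% in TRF2-depleted and 0.204% in DKO hippocampus against control. Between DKO and TRF2-depleted hippocampus it was 0.153%. At such shares 6 genes would mostly have 0 called. By the authors' deposited table, a p below 0.05 before adjustment was reached by 2 in cortex, 0 in TRF2-depleted and 2 in DKO hippocampus against control. It was reached by 1 between DKO and TRF2-depleted hippocampus. Over all genes tested the counts were 571 of 8658, 512 of 9824, 705 of 9816 and 499 of 9818 in the same order. C1ql4, the remaining C1q-like gene, is listed at 0 in all 5 conditions. C1qtnf4, a secreted relative, had 60.1 FPKM in DKO, 44.7 FPKM in TRF2-depleted and 50.0 FPKM in control hippocampus, and its difference between DKO and TRF2-depleted hippocampus had p = 0.0008 and q = 0.228 in the authors' deposited table. Calbindin (Calb1), which stands in the granule neuron and the Purkinje lists, had 20.5 FPKM in DKO, 18.7 FPKM in TRF2-depleted and 24.5 FPKM in control hippocampus.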
